A study of Homo sapiens with 12 samples.

Results

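The genes described here are the 63 clustered core histone genes, chosen by name from the 63241 genes of a count table: every gene whose symbol joins H2A, H2B, H3 or H4 to the letter C and a number. The rule uses names alone, though it was set with earlier results of these data known. They comprised 17 H2A, 18 H2B, 13 H3 and 15 H4 genes, and 49 lay on chromosome 6, 13 on chromosome 1 and 1 on chromosome 12. RNA had been depleted of ribosomal RNA and sequenced from HCT116, a human colorectal carcinoma cell line, in 12 libraries that fell into 4 groups of 3. The actinomycin D group was wild-type HCT116 given 5 µg/mL of actinomycin D, a DNA-binding drug that blocks transcription, and its titles give 6 hours. The POLR1A-depleted group carried the genotype POLR1A-AID1, in which the largest subunit of RNA polymerase I bears a degron tag, through which added auxin causes the tagged protein to be destroyed. It received 1 µg/ml of doxycycline for 24 hours, to induce the OsTIR1 adaptor, and then 500 µM of indole-3-acetic acid, titled 8 hours. The POLR2A-depleted group carried POLR2A-AID2, a degron on the largest subunit of RNA polymerase II, and received 1 µM of 5-phenyl-indole-3-acetic acid, titled 8 hours. The control group was wild-type HCT116 in DMSO, titled 8 hours. The extraction text gives harvest at 6 hours for all 4 groups, so the times are uncertain by that difference. The dishes of a group were treated separately on the same day and are described as technical replicates, so p-values measure the spread between dishes. No degron line without its ligand is in these groups, so the cell line, doxycycline and ligand cannot be told apart from the loss of the polymerase subunit.

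Core histones form the protein spool of the nucleosome, an octamer that holds a pair each of H2A, H2B, H3 and H4. Their replication-dependent genes are transcribed by RNA polymerase II, mainly in S phase, in nuclear bodies where NPAT and the U7 small nuclear ribonucleoprotein gather. Their mRNAs usually carry no poly(A) tail: they end just after a conserved stem-loop bound by SLBP, and they are short-lived and are degraded quickly when DNA synthesis stops. In RNA from whole dishes, fewer cells in S phase and less histone mRNA per cell cannot be told apart.

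The stem-loop is the element that these mRNAs share, and its letters differed by family. Searching the GENCODE 29 transcripts (GRCh38) of the members for the stem-loop consensus of 16 letters found 30 sites in 29 genes. All 8 H4 sites began GGCCC, while the 5 H2A, 12 H2B and 5 H3 sites began GGCUC. Sites were counted by the gene of the transcript. Of those counted for H2B, 1 in H2BC15 (chr6:27865778-27865793) lies just past the annotated end of the H2A gene H2AC16 (chr6:27865355-27865747). Both are on the plus strand, so the family of that site is uncertain. Shown are the most frequent form in each family, with variants and further genes that carry results below, as RNA from 5′ to 3′, with the stem-loop in capitals and 5 bases on either side.
H2AC13, chr6:27808647-27808662, plus strand: ccaaaGGCUCUUUUCAGAGCCaccua
H2AC11, chr6:27133515-27133530, plus strand: ccaacGGCUCUUUUCAGGGCCaccca
H2AC25, chr1:228457369-228457384, minus strand: auaaaGGCUCUUUUCAGAGCCaccua
H2BC4, chr6:26123472-26123487, minus strand: ccaaaGGCUCUUUUAAGAGCCaccca
H2BC6, chr6:26184210-26184225, plus strand: ccaaaGGCUCUUUUCAGAGCCacuca
H3C15, chr1:149853105-149853120, plus strand: caaaaGGCUCUUUUCAGAGCCaccca
H3C6, chr6:26225596-26225611, plus strand: ccaaaGGCUCUUCUCAGAGCCaacca
H4C8, chr6:26285131-26285146, minus strand: ccaaaGGCCCUUUUCAGGGCCgccca
H4C14, chr1:149833032-149833047, plus strand: ccaaaGGCCCUUUUUAGGGCCgacca
The coordinates are those of the capitals. The H3C6 form occurred in no other member's transcripts. For 26 members GENCODE 29 annotates no more than the coding length, so their ends hold no stem-loop to find, and 4 members (H2AC18, H2AC19, H3C2 and H3C3) are not in that release. H2BC1, H2BC11, H3C12 and H4C3 are annotated beyond the coding length, and no match was found in their transcripts.

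The promoters separated the H4 genes from the other families. RefSeq promoter windows on GRCh38.p14, from 250 bases before to 50 bases after the start, were matched for 58 of the 63 members. The CCAAT box, bound by NF-Y, was found on either strand in 16 of 16 H2A, 18 of 18 H2B and 11 of 11 H3 windows, in 3 of 13 H4 windows, and in 35.7% of all 27305 promoter windows. The octamer ATTTGCAT, known from H2B promoters as a site for POU2F1, was in 11 of 16 H2A, 14 of 18 H2B, 1 of 11 H3 and 0 of 13 H4 windows, against 1.80% of all. That H3 window is the one listed for H3C4, which is identical to the window of the H2A gene H2AC7 and is thus counted in both families. GGTCCG, part of the H4 promoter element that HINFP is known to bind, was in 12 of 13 H4 windows, 1 of 16 H2A, 1 of 18 H2B and 1 of 11 H3 windows, against 11.2% of all. TATAAA was in 67.2% of the members' windows and 11.95% of all. Both strands were searched, so TTTATA stands for the TATA motif read on the other strand, ATTGG for the CCAAT box, and ATGCAAAT for the octamer, while the H4 motif reads CGGACC there. The TATA motif can overlap its own reverse complement. A total of 23 member windows share bases with another member's window, 11 of them H2A, 11 H2B and the H3C4 window. Shown are the windows of 4 genes whose values went against those of most members, with these motifs in capitals.
H4C8, chr6:26285485-26285784, minus strand: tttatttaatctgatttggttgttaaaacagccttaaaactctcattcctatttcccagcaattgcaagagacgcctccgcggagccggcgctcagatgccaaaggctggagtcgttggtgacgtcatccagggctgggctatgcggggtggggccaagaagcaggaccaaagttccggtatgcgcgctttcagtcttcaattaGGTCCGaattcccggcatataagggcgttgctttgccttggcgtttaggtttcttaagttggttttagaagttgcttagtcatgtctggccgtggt
H2BC14, chr6:27814772-27815071, plus strand: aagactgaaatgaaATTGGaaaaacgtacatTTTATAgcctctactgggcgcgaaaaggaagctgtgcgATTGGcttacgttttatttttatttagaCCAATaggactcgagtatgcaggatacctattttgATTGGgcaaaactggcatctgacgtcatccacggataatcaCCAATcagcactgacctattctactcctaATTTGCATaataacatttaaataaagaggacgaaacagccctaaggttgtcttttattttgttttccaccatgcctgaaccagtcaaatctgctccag
H3C6, chr6:26223928-26224227, plus strand: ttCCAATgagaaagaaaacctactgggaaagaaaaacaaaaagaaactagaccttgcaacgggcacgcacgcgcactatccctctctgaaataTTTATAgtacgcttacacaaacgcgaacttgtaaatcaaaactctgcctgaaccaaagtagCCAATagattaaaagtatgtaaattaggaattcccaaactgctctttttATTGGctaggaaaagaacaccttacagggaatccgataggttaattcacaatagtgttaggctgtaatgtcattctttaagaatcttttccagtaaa
H2AC25, chr1:228457824-228458123, minus strand: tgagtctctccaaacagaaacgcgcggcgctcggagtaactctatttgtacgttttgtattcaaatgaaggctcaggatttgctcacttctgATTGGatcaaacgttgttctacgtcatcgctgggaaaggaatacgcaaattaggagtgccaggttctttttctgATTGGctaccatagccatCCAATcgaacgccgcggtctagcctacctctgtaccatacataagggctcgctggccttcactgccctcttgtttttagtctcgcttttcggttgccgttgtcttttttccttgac
These matches describe letters only. H4C8 has the H4 element and no CCAAT box, H2BC14 has all of the other elements, and H3C6 and H2AC25 have CCAAT boxes and no octamer.

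The deposited values were estimated counts, which divide reads shared by similar genes, and the core histone genes hold near-identical copies. H3C14 and H3C15 share 100% of their 75-letter words, and H4C12 shares 100% of its words with H4C11, of whose words 79.6% are shared. H4C14 and H4C15 share 97.1% of the smaller gene's words, and H2AC13 and H2AC14 share 82.4%. H3C12 and H2AC17, of different families, overlap on the same strand and share 85.3%. Among member values above 0, 28.1% were whole numbers, against 76.1% of all values in the table. The division was not steady between libraries. H3C14 held 78.3 counts and H3C15 held 0 in actinomycin D replicate 2, while in replicates 1 and 3 H3C14 held none and H3C15 held 48.2 and 89.3. H4C12 held 0, 72.5 and 0 counts in the actinomycin D libraries, where H4C11 held 153, 63.5 and 126. H2AC19 received 446 counts in POLR2A-depleted replicate 2 and none elsewhere. For these genes the level of a single copy is uncertain and the sum over the pair is given where it matters. H3C12 and H2AC17 were not summed.

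**Figure D1:**
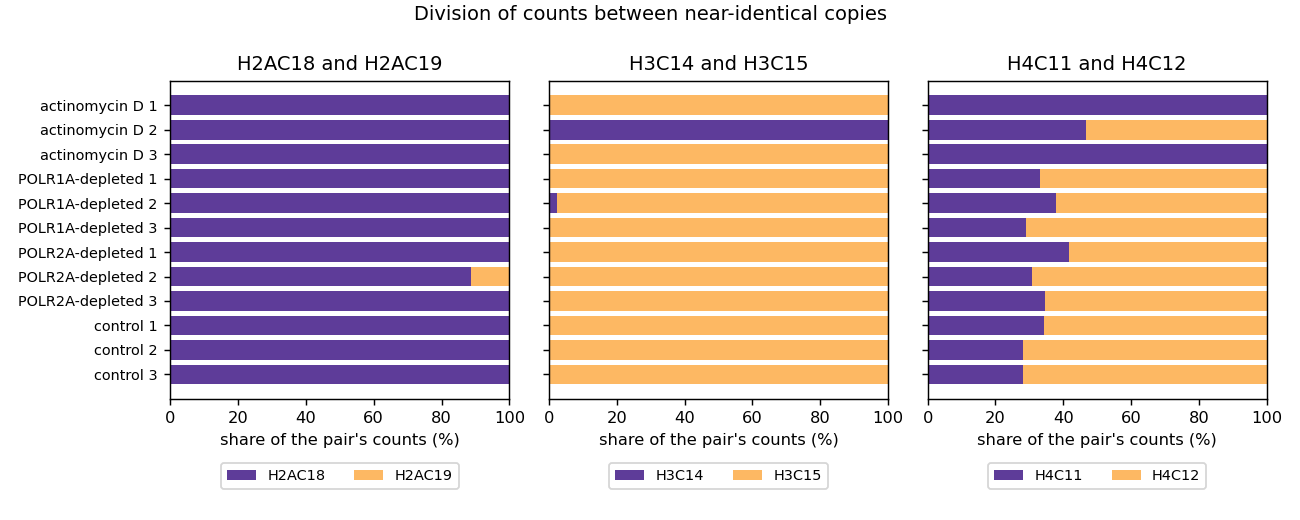
Share of each pair's counts (x axis, %) given to each copy in each of the 12 libraries (rows, actinomycin D at the top and control at the bottom). H3C14 takes the whole pair in actinomycin D replicate 2, H4C12 is empty in actinomycin D replicates 1 and 3, and H2AC19 receives counts in POLR2A-depleted replicate 2.

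Total counts ran from 11289094 to 27393969 per library, deepest with actinomycin D. Summed epithelial markers ran from 1632 to 3461 CPM (each count relative to its library's TMM-adjusted total) per library, with all 5 markers detected. Markers of other cell types were low: 4 blood markers summed to 2.10 to 5.69 CPM, and 3 fibroblast and endothelial markers summed to between 10.5 and 11.9 CPM with actinomycin D, between 19.6 and 24.1 CPM over both degron groups and between 7.13 and 8.24 CPM in control. None of these 12 markers was at 0 in every library, and the part of other cells in the histone values was not tested. The degrons act on protein, so the targets' mRNAs do not check depletion: POLR1A mRNA lay between 145 and 151 CPM in its depleted group, against 229.8 to 249 CPM in control, and POLR2A mRNA between 1073 and 1110.4 CPM in its depleted group, against 468 to 561 CPM in control.

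Summed over the members, core histone RNA was almost lost with actinomycin D, stood at 32.96% of control with POLR2A depleted and stayed nearest to control with POLR1A depleted. The 63 genes together held 127 ± 12.4 CPM with actinomycin D, 5249 ± 377 CPM with POLR1A depleted, 2089 ± 78.8 CPM with POLR2A depleted and 6339 ± 620.0 CPM in control (mean ± SD, n = 3 each). Every actinomycin D and every POLR2A-depleted library lay below every control library, and so did every POLR1A-depleted library, by a small margin: the highest reached 5529.9 CPM and the lowest control 5723 CPM. As a share of all counts the members held 0.0116% with actinomycin D, 0.535% with POLR1A depleted, 0.225% with POLR2A depleted and 0.627% in control.

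By family, the H2A sum was 23.8 ± 1.85 CPM with actinomycin D, 1631 ± 128 CPM with POLR1A depleted, 701 ± 17.3 CPM with POLR2A depleted and 1956 ± 217 CPM in control. The H2B sum was 31.4 ± 2.06 CPM with actinomycin D, 1542 ± 95.7 CPM with POLR1A depleted, 662 ± 27.2 CPM with POLR2A depleted and 1924 ± 220.1 CPM in control. Both families were lowest with actinomycin D and nearest to control with POLR1A depleted. The H3 sum was 12.01 ± 0.2197 CPM with actinomycin D, 959 ± 98.1 CPM with POLR1A depleted, 289 ± 20.4 CPM with POLR2A depleted and 1105 ± 96.2 CPM in control. The H4 sum was 60.02 ± 8.76 CPM with actinomycin D, 1116 ± 65.3 CPM with POLR1A depleted, 437 ± 28.1 CPM with POLR2A depleted and 1353 ± 113 CPM in control. Relative to control on TMM scaling, the actinomycin D sums were 92.02-fold lower for H3, 82.01-fold for H2A, 61.4-fold for H2B and 22.5-fold for H4. Scaled to the 13 mitochondrially encoded mRNAs the actinomycin D sums were 48.96-fold lower than control for H3, 43.2-fold for H2A, 32.3-fold for H2B and 11.9-fold for H4. On TMM scaling and without H4C3 the H4 sum was 57.7-fold lower. With POLR2A depleted the sums were 3.82-fold lower for H3, 3.099-fold for H4, 2.91-fold for H2B and 2.79-fold for H2A. With POLR1A depleted the 4 sums lay between 1.15-fold (H3) and 1.25-fold (H2B) below control, and their direction turned under the same mitochondrial scaling, which placed them above control by 0.043 to 0.14 on the log2 scale. Differences between families were not tested.

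**Figure D2:**
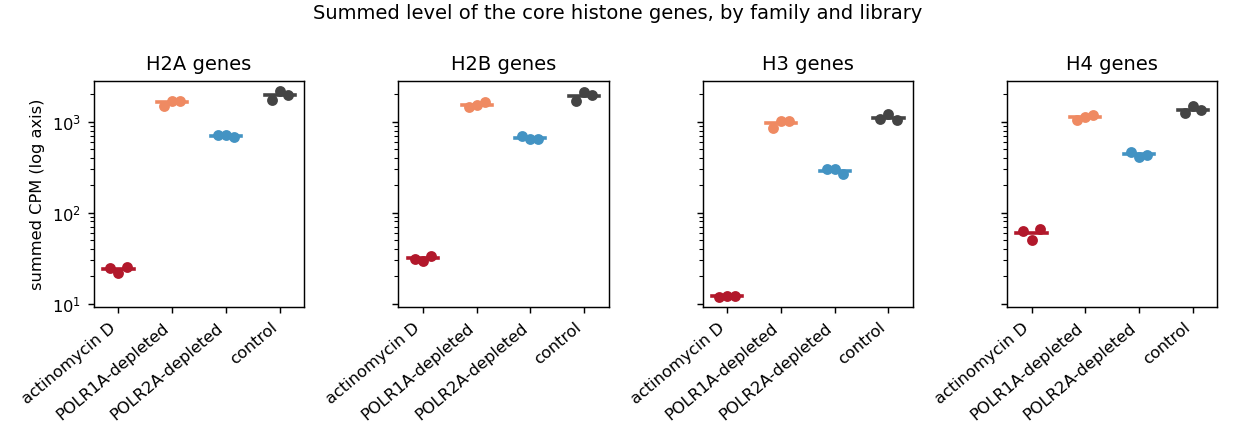
Summed CPM per library (y axis, log scale) for each family, with a bar at the mean of 3 libraries, for actinomycin D, POLR1A-depleted, POLR2A-depleted and control. The actinomycin D points lie far below all others in each family, and the H3 sum there (12.01 CPM) is the lowest of the 4.

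The single genes were tested with edgeR's quasi-likelihood test on all 23593 genes with enough counts, with calls made at an adjusted p under 0.05 (Benjamini-Hochberg). Of the 63 members 48 had enough counts to be tested: 14 H2A, 13 H2B, 9 H3 and 12 H4 genes. The 15 others had few counts in every library, apart from the copies H3C14 and H2AC19. Counts below are therefore over the 48 that were tested. CPM do not give RNA per cell, so rises and falls below are relative to the other RNA of a library. Among members with a GENCODE 29 exon length, the highest levels per kilobase in control were those of H4C12, H2BC12 and H2AC14, at 1037, 819.8 and 516 CPM per kb. With actinomycin D they were those of H4C3, H2BC12 and H4C11, at 89.05, 25.1 and 14.9 CPM per kb. The 4 members not in that release could not be ranked, among them H2AC18, with a mean of 429 CPM in control. Members whose annotation stops at the coding length gain in such a ranking.

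With actinomycin D, 46 of the 48 tested core histone genes fell and none rose. Among all tested genes 28.5% were called lower and 24.9% higher, and no member was higher at an unadjusted p under 0.05 in edgeR (0 genes) or by DESeq2 (0 genes). The median member had a log2 fold change of -6.07 and the median of all tested genes was -0.06. All 14 H2A and all 13 H2B genes fell, with 8 of 9 H3 genes and 11 of 12 H4 genes, and the family medians, which H2AC7 and H2AC8 at their bounds left the same, were -6.56 for H2A, -5.71 for H2B, -6.94 for H3 and -5.39 for H4. Every actinomycin D library lay below every control library for 44 of the 48. How many of all tested genes separated in this way is not given. Scaling to the mitochondrial mRNAs, which themselves were called lower for 13 of 13 genes with actinomycin D, moved the median of all genes to 0.82, and the median of the members to -5.15.

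The deepest loss among H2A genes was that of H2AC7 (chr6:26198851-26199243, minus strand), which had no counts in any actinomycin D library. It had 86.7, 119 and 123 CPM with POLR1A depleted, 31.5, 21.8 and 33.9 CPM with POLR2A depleted and 103, 159.6 and 149.6 CPM in control. Against a floor of 3 counts over the group, H2AC7 was at least 3038-fold lower with actinomycin D than in control (edgeR adjusted p = 4.56e-06). The neighbouring H3C4 (chr6:26196840-26197250) had 0.0539, 0.279 and 0.188 CPM with actinomycin D and 83.2, 118 and 94.4 CPM in control, a log2 fold change of -9.01 (SE 0.50, edgeR adjusted p = 3.88e-07). The groups were far apart for both genes. H2AC7 and H3C4 both lie within AL031777.3, annotated on the same strand, so reads could be divided among the 3. H2BC11 had 0.323, 0.358 and 0.705 CPM with actinomycin D and 76.3, 92.3 and 79.7 CPM in control, a log2 fold change of -7.47 (SE 0.17, edgeR adjusted p = 1.51e-16). In H4 the copy H4C12 had a log2 fold change of -8.18, and the pair H4C11 and H4C12 summed to 6.53 ± 1.51 CPM with actinomycin D and 465 ± 24.2 CPM in control (SD, n = 3), a log2 fold change of -6.17 (SE 0.13, edgeR adjusted p = 6.24e-13).

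The members with the highest mean CPM over all libraries in each family also fell. H2AC18 had 5.01, 4.82 and 4.37 CPM with actinomycin D and 405, 465 and 418 CPM in control, a log2 fold change of -6.50. H2AC11 had 1.94, 1.15 and 1.36 CPM with actinomycin D and 226, 274 and 254 CPM in control, a log2 fold change of -7.43. H2AC14 had 2.16, 1.83 and 1.88 CPM with actinomycin D and 172, 220.4 and 208 CPM in control, a log2 fold change of -6.68. These 3 H2A genes passed the test and their groups lay far apart. H2BC18 had 2.695, 3.78 and 3.29 CPM with actinomycin D and 447, 550.4 and 514 CPM in control, a log2 fold change of -7.25. H2BC4 had 6.63, 5.25 and 6.86 CPM with actinomycin D and 276, 353 and 344 CPM in control, a log2 fold change of -5.71. H2BC12 (chr6:27146418-27146798) kept more, with 9.49, 9.47 and 9.77 CPM under actinomycin D and 273, 336 and 328 CPM in control, a log2 fold change of -5.03. All 3 H2B genes were called lower. In H3 the highest member was H3C15, whose sum with its copy H3C14 was 2.59, 3.11 and 4.18 CPM with actinomycin D and 345, 308 and 260.2 CPM in control, a log2 fold change of -6.52 (SE 0.24, edgeR adjusted p = 1.52e-08). H3C2 had 1.99, 2.23 and 1.83 CPM with actinomycin D and 204, 299 and 247 CPM in control, a log2 fold change of -6.94. H3C10 had 2.32, 1.43 and 1.55 CPM with actinomycin D and 161, 173 and 161 CPM in control, a log2 fold change of -6.57. These too were called and apart. In H4 the highest members were H4C12 and its copy H4C11, whose sum was 8.25, 5.41 and 5.92 CPM with actinomycin D, 355, 357 and 405 CPM with POLR1A depleted, 169, 137 and 152 CPM with POLR2A depleted and 492, 456 and 447 CPM in control. With POLR1A depleted the sum of H4C11 and H4C12 had a log2 fold change of -0.32 (SE 0.10, edgeR adjusted p = 0.0183) against control, while neither copy was called alone.

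Of the 3 members with the highest mean CPM in each family, H4C3 (chr6:26103876-26104310) kept the most RNA with actinomycin D. It had 39.9, 32.05 and 44.2 CPM with actinomycin D, 101, 110.1 and 115 CPM with POLR1A depleted, 45.1, 39.7 and 45.4 CPM with POLR2A depleted and 116, 133 and 129 CPM in control. The actinomycin D libraries lay below the POLR1A-depleted and control libraries and overlapped the POLR2A-depleted ones. Its log2 fold change against control was -1.71 (SE 0.10, edgeR adjusted p = 2.08e-09), and without each library in turn it stayed between -1.81 and -1.57. Scaled to the mitochondrial mRNAs it was -0.78, still called. H4C3 made up 64.5% of the H4 sum with actinomycin D (SD 1.70, n = 3), 9.72% with POLR1A depleted, 9.95% with POLR2A depleted and 9.31% in control. H4C3 has no near-identical partner among the members, and GENCODE 29 places no other gene over it.

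Few other members were called with a small change. H3C6 (chr6:26224199-26227473), with the stem-loop form of its own, had 2.53, 3.07 and 2.07 CPM with actinomycin D and 3.98, 5.395 and 5.14 CPM in control, which do not overlap, a log2 fold change of -0.92 (SE 0.19, edgeR adjusted p = 2.71e-04). Scaled to the mitochondrial mRNAs it was 0.021 and not called. H2AC25 (chr1:228456979-228457873), an H2A gene on the distal cluster of chromosome 1, had 3.18, 3.304 and 4.56 CPM with actinomycin D and 34.04, 19.7 and 16.2 CPM in control, a log2 fold change of -2.65 (SE 0.27, edgeR adjusted p = 7.72e-06). H2BC6 and H2AC8 were near the limit of detection, and their calls rested on single libraries. H2BC6 had 19 counts over the actinomycin D libraries and 47 over the control libraries, a log2 fold change of -1.73 (SE 0.58, edgeR adjusted p = 0.0223). Its adjusted p in edgeR was 0.098 without actinomycin D replicate 2, 0.0847 without actinomycin D replicate 3 and 0.256 without control replicate 3. Scaled to the mitochondrial mRNAs H2BC6 had a log2 fold change of -0.77 and an edgeR adjusted p of 0.194. H2AC8 had 0 counts with actinomycin D and 6 in control, at least 2.79-fold lower, and its adjusted p in edgeR was 0.0565 without actinomycin D replicate 2, 0.05002 without actinomycin D replicate 3 and 0.111 without control replicate 2. The 2 members with no call, H3C3 and H4C9, held 1 count each with actinomycin D, against 5 and 2 counts in control.

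**Figure D3:**
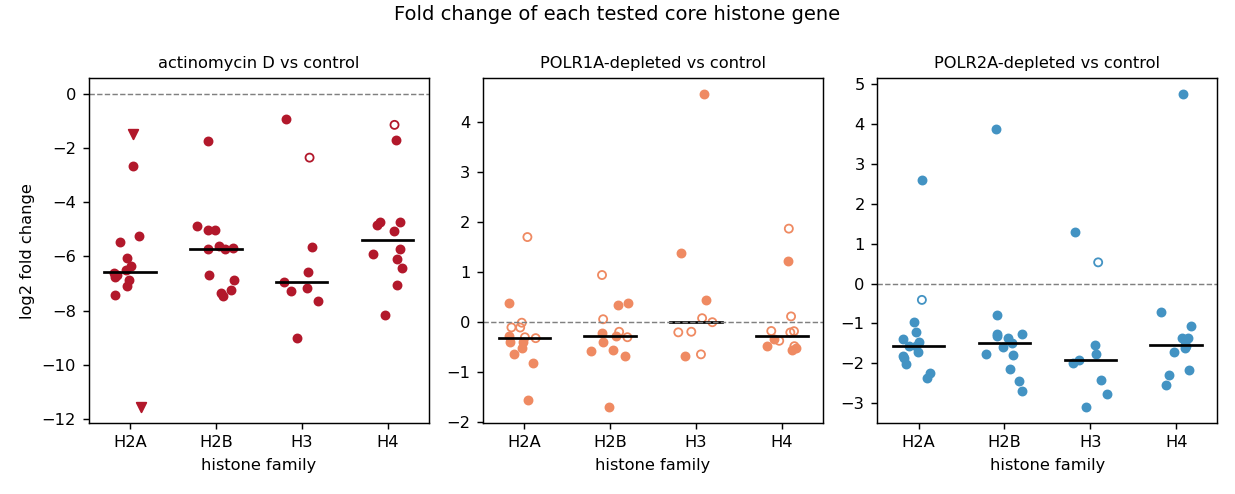
Log2 fold change of the 48 tested members by family for actinomycin D, POLR1A-depleted and POLR2A-depleted against control (the y axes differ). Filled points passed the test, open points did not, triangles are upper bounds for H2AC7 and H2AC8, which had no counts with actinomycin D, and bars are medians, which lie at -5.39 to -6.94 with actinomycin D and at -1.50 to -1.93 with POLR2A depleted.

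With POLR2A depleted, 42 of the 48 members fell and 4 rose. Among all tested genes 28.2% were called lower and 33.2% higher, and the median of all was 0.08, against -1.57 for the members. Of the 10707 tested genes whose mean log2 CPM is 3 or higher, which hold 44 of the members, 49.8% were called lower and 23.0% higher. By family 12 of 14 H2A, 12 of 13 H2B, 7 of 9 H3 and 11 of 12 H4 genes fell, and 1 rose in each. The medians were -1.57 for H2A, -1.50 for H2B, -1.93 for H3 and -1.56 for H4. The POLR2A-depleted libraries all lay below the control libraries for 42 members and all above them for 4. A total of 39 members fell at least 2-fold, 12 at least 4-fold and 0 at least 16-fold. The separations and fold counts are given without those over all tested genes, so they describe the members alone.

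The deepest loss was that of H3C4, which had 15.4, 7.11 and 12.4 CPM with POLR2A depleted and 83.2, 118 and 94.4 CPM in control, a log2 fold change of -3.10 (SE 0.29, edgeR adjusted p = 1.52e-05). As above, reads of H3C4 could be divided with H2AC7 and AL031777.3. H2BC14 (chr6:27815044-27815424) had 6.97, 7.46 and 7.46 CPM with POLR2A depleted and 38.6, 49.9 and 52.5 CPM in control, a log2 fold change of -2.69 (SE 0.13, edgeR adjusted p = 3.86e-12). H4C4 had 21.9, 20.8 and 19.7 CPM with POLR2A depleted and 104, 141 and 119 CPM in control, a log2 fold change of -2.54 (SE 0.13, edgeR adjusted p = 1.86e-09). The groups were apart for all 3. H2AC15, the lowest of the H2A genes, had 5.83, 8.17 and 7.21 CPM with POLR2A depleted and 30.7, 41.1 and 38.6 CPM in control, a log2 fold change of -2.38 (SE 0.14, edgeR adjusted p = 1.73e-11). It overlaps H2BC15 on the opposite strand, and the strand setting of the counting is not given in the sources used here.

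Other members fell less. H4C16 (chr12:14767999-14771131), the lone member on chromosome 12, had 13.3, 15.8 and 13.3 CPM with POLR2A depleted and 22.3, 25.9 and 21.8 CPM in control, a log2 fold change of -0.72 (SE 0.12, edgeR adjusted p = 2.20e-05). H2BC12 had 185, 183 and 177 CPM with POLR2A depleted and 273, 336 and 328 CPM in control, a log2 fold change of -0.78 (SE 0.06, edgeR adjusted p = 8.82e-10). H2AC18 had 227, 209 and 223 CPM with POLR2A depleted and 405, 465 and 418 CPM in control, a log2 fold change of -0.97 (SE 0.06, edgeR adjusted p = 3.39e-11). Summed with its copy H2AC19, which received counts in POLR2A-depleted replicate 2, it had 227, 235 and 223 CPM with POLR2A depleted. The log2 fold change of that sum was -0.91 (SE 0.06, edgeR adjusted p = 6.33e-11). For each the groups did not overlap. H2AC25 did not pass the test: its POLR2A-depleted libraries had 17.2, 18.8 and 16.1 CPM and overlapped the control libraries, 1 of which was high (34.04, 19.7 and 16.2 CPM), with a log2 fold change of -0.41 (SE 0.24, edgeR adjusted p = 0.1698).

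The 4 genes that rose with POLR2A depleted were weak in control, 1 in each family. H2BC6 (chr6:26172059-26184655) had 13.7, 15.2 and 15.5 CPM with POLR2A depleted and 0.859, 0.2398 and 1.87 CPM in control, a log2 fold change of 3.87 (SE 0.42, edgeR adjusted p = 2.05e-06). AL353759.1 is annotated over it on the opposite strand. H3C6 had 10.9, 14.2 and 10.9 CPM with POLR2A depleted and 3.98, 5.395 and 5.14 CPM in control, a log2 fold change of 1.302 (SE 0.17, edgeR adjusted p = 1.18e-06). H2AC8 had 0.938, 0.711 and 0.829 CPM with POLR2A depleted and 0.156, 0.2398 and 0 CPM in control, a log2 fold change of 2.61 (SE 0.80, edgeR adjusted p = 0.00864). None of these groups overlapped. H4C9 had 58 counts with POLR2A depleted and 2 in control, a ratio of scaled counts of 30.8 (exact binomial 95% interval 8.16 to 261, counting error only), with an edgeR adjusted p of 1.18e-04. All 4 are among the 28 tested members whose GENCODE 29 annotation is longer than the coding sequence, of which 23 fell. Of the 17 tested members annotated at coding length alone 17 fell. The share called lower was 28.2% of all tested genes and 49.8% of those with a mean log2 CPM of 3 or higher. This split was not tested, and the 4 genes were picked from the same values. The median log2 fold change was -1.55 for the longer and -1.93 for the coding-length members.

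With POLR1A depleted, the members moved in both directions. Of the 48, 19 fell and 7 rose, against 18.6% called lower and 20.6% called higher among all tested genes. The share that fell, unlike the share that rose, was above that of all genes. Most members are well counted, though: 44 of them are in the 10707 tested genes whose mean log2 CPM is 3 or higher. Of those genes 30.5% were called lower and 34.2% higher, so the excess in the share that fell was smaller at that level. The median was -0.25 for the members and 0.01 for all genes. By family 7 of 14 H2A genes fell and 1 rose, 7 of 13 H2B genes fell and 2 rose, 1 of 9 H3 genes fell and 3 rose, and 4 of 12 H4 genes fell and 1 rose. The medians were -0.32 for H2A, -0.28 for H2B, -0.01 for H3 and -0.28 for H4. The split depended on scaling: relative to mitochondrial mRNAs 12 members were called higher and 4 lower, the median of the members was 0.10 and that of all genes 0.37. All 7 genes that rose did so under each of the 15 other settings. Of the 19 that fell, 4 fell under every setting: H2AC15, H2AC25, H2BC18 and H2BC26.

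Apart from H3C3, the genes that rose most were H3C6 and H4C8 (chr6:26277609-26285638, minus strand). H4C8 had 42.9, 42.97 and 42.8 CPM with POLR1A depleted and 15.5, 21.2 and 18.3 CPM in control, a log2 fold change of 1.22 (SE 0.12, edgeR adjusted p = 1.98e-08). With actinomycin D it had 0.647, 0.318 and 0.705 CPM and with POLR2A depleted 6.97, 8.06 and 6.05 CPM, both below control. The POLR1A-depleted libraries were thus the highest of the 4 groups. H3C6 had 14.2, 11.7 and 11.9 CPM with POLR1A depleted and 3.98, 5.395 and 5.14 CPM in control, a log2 fold change of 1.37 (SE 0.17, edgeR adjusted p = 7.86e-07). Another 4 genes rose by less. The H3 gene H3C1 had 60.1, 65.5 and 64.7 CPM with POLR1A depleted and 44.9, 48.7 and 46.4 CPM in control, a log2 fold change of 0.44 (SE 0.07, edgeR adjusted p = 3.03e-05). H2AC4 had 69.3, 76.96 and 75.3 CPM with POLR1A depleted and 47.9, 63.004 and 59.2 CPM in control, a log2 fold change of 0.38 (SE 0.10, edgeR adjusted p = 0.007404). The 2 others were H2B genes. H2BC14 had 56.4, 61.3 and 65.1 CPM with POLR1A depleted and 38.6, 49.9 and 52.5 CPM in control, a log2 fold change of 0.37 (SE 0.10, edgeR adjusted p = 0.00854). H2BC11 had 95.5, 103 and 114 CPM with POLR1A depleted and 76.3, 92.3 and 79.7 CPM in control, a log2 fold change of 0.33 (SE 0.09, edgeR adjusted p = 0.00524). No library of either group overlapped the other in these genes. H3C3, nearly silent in control, had 3.11, 3.08 and 1.71 CPM with POLR1A depleted and 0, 0.1798 and 0.117 CPM in control, a log2 fold change of 4.55 (SE 0.72, edgeR adjusted p = 2.23e-05) that rests on 5 control counts.

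The deepest losses were those of a head-to-head pair on the distal cluster of chromosome 1. H2BC26 (chr1:228458107-228460470) had 12.5, 12.95 and 14.9 CPM with POLR1A depleted, against 39.8, 51.01 and 40.9 CPM in control, a log2 fold change of -1.71 (SE 0.11, edgeR adjusted p = 6.64e-11). Its partner H2AC25 had 6.54, 7.95 and 8.76 CPM with POLR1A depleted, against 34.04, 19.7 and 16.2 CPM in control, a log2 fold change of -1.57 (SE 0.25, edgeR adjusted p = 4.15e-04). The POLR1A-depleted libraries lay below all control libraries in both genes. H2AC15 had 19.3, 21.3 and 21.4 CPM with POLR1A depleted and 30.7, 41.1 and 38.6 CPM in control, a log2 fold change of -0.83 (SE 0.13, edgeR adjusted p = 1.58e-05). H2BC18 had 294, 309 and 335 CPM with POLR1A depleted and 447, 550.4 and 514 CPM in control, a log2 fold change of -0.69 (SE 0.07, edgeR adjusted p = 6.82e-07). These groups too were apart. Among H3 genes H3C13 alone was called lower (-0.68), and among H4 genes H4C14 was lowest (-0.56), where the pair H4C14 and H4C15 summed to 193 ± 16.8 CPM with POLR1A depleted and 281 ± 39.01 CPM in control. H3C15 was not called by itself (-0.65), while the pair H3C14 and H3C15 had a log2 fold change of -0.64 (SE 0.16, edgeR adjusted p = 0.0128). By position, 8 of 11 tested members on chromosome 1 fell and 0 rose, and 10 of 36 on chromosome 6 fell and 7 rose. This split was not tested, and the medians were -0.57 and -0.19.

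**Figure D4:**
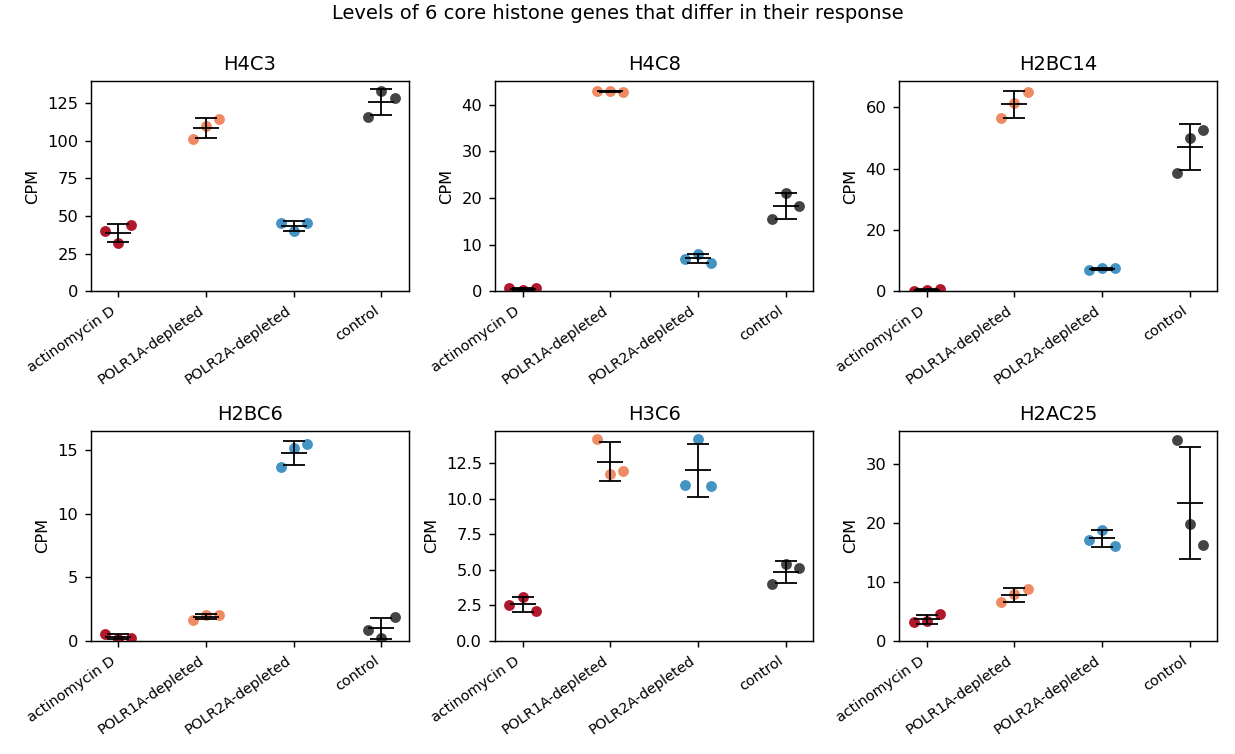
CPM of H4C3, H4C8, H2BC14, H2BC6, H3C6 and H2AC25 in each library (points), with mean and SD of 3 libraries (black), by group. H4C3 keeps 38.7 CPM with actinomycin D, H4C8 and H2BC14 are highest with POLR1A depleted, and H2BC6 is highest with POLR2A depleted.

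Across the 3 comparisons with control, which share the control libraries, 19 members were lower with actinomycin D and POLR2A depleted and had no call with POLR1A depleted, and 18 were lower in all 3. How often all tested genes had these patterns was not counted. Another 5 were lower with actinomycin D and POLR2A depleted and higher with POLR1A depleted: H2AC4, H2BC11, H2BC14, H3C1 and H4C8. H3C6 was lower with actinomycin D and higher in both degron groups. H2AC25 was lower with actinomycin D and POLR1A depleted and had no call with POLR2A depleted. H2AC8 and H2BC6 were lower with actinomycin D and higher with POLR2A depleted, H4C9 was higher with POLR2A depleted alone and H3C3 with POLR1A depleted alone.

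Head-to-head H2A and H2B genes did not always share a call with POLR1A depleted. H2AC11 had 196, 205 and 218 CPM with POLR1A depleted and 226, 274 and 254 CPM in control, a log2 fold change of -0.29 (SE 0.07, edgeR adjusted p = 0.00172). Its partner H2BC11 rose (0.33), although the pair shares bases of a promoter window. H2AC14 had no call (-0.11) beside H2BC14, which rose (0.37). H2AC17 was called lower (-0.41) beside H2BC17, which had no call (0.05), and H2AC6 was called lower (-0.64) beside H2BC4, which had none (-0.20). Only 17.6% of the words of H2AC14 and 14.7% of those of H2AC17 are in no other member, so their single values are uncertain. Both partners were called lower in H2AC15 and H2BC15 (-0.83 and -0.40). The calls of H2AC11, H2AC17, H2AC6 and H2BC15 were lost when libraries were scaled to the mitochondrial mRNAs. H2AC13 and H2BC13 were called lower too (-0.40 and -0.58), but the call of H2BC13 was lost under that scaling and without any 1 of the POLR1A-depleted or control libraries. The call of H2AC13 was lost under that scaling, without control replicate 2 or 3, in a fit of these 2 groups alone, and when summed with its copy H2AC14, at -0.23 (SE 0.09, edgeR adjusted p = 0.0545). Differences within a pair were not tested. With actinomycin D both partners fell in each pair whose genes were both tested.

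Set against each other, the treatments differed in nearly every member. With actinomycin D, all 48 were lower than with POLR1A depleted (31.8% of all genes were called lower and 24.4% higher), with a median log2 fold change of -6.06, against -0.12 for all genes. Against POLR2A depletion 47 were lower and 0 higher (39.8% and 31.1% of all genes), with a median of -4.81, or -4.73 with H2AC7 and H2AC8 at their bounds, against -0.18 for all genes. No member was higher at an unadjusted p under 0.05 in edgeR (0 genes) or by DESeq2 (0 genes) in either comparison. The exception was H4C3, whose log2 fold change between actinomycin D and POLR2A depletion was -0.17 (SE 0.10, edgeR adjusted p = 0.173), and 1.05 when scaled to the mitochondrial mRNAs, where it was called higher. The medians between actinomycin D and POLR2A depletion were -4.89 for H2A with the bounds, -4.42 for H2B, -4.89 for H3 and -4.11 for H4.

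POLR1A-depleted libraries held more core histone RNA than POLR2A-depleted ones: 41 members were higher and 3 lower (29.1% of all genes were called higher and 33.2% lower), with a median of 1.34, against -0.08 for all genes. By family 12 of 14 H2A, 11 of 13 H2B, 8 of 9 H3 and 10 of 12 H4 genes were higher, with medians of 1.26 for H2A, 1.19 for H2B, 1.83 for H3 and 1.34 for H4. Among well-detected members the difference was greatest for H2BC14, at 3.06 (SE 0.13, edgeR adjusted p = 4.87e-13), and H3C1 (2.87), H3C4 (2.90), H3C12 (2.76) and H4C8 (2.60) followed. The 3 lower genes were H2BC6 (-2.94), H4C9 (-2.90) and H2AC25 (-1.16). H2BC26 and H3C6 had no call, at -0.13 and 0.07. The 2 degron groups also differ in line, inducer and ligand.

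**Figure D5:**
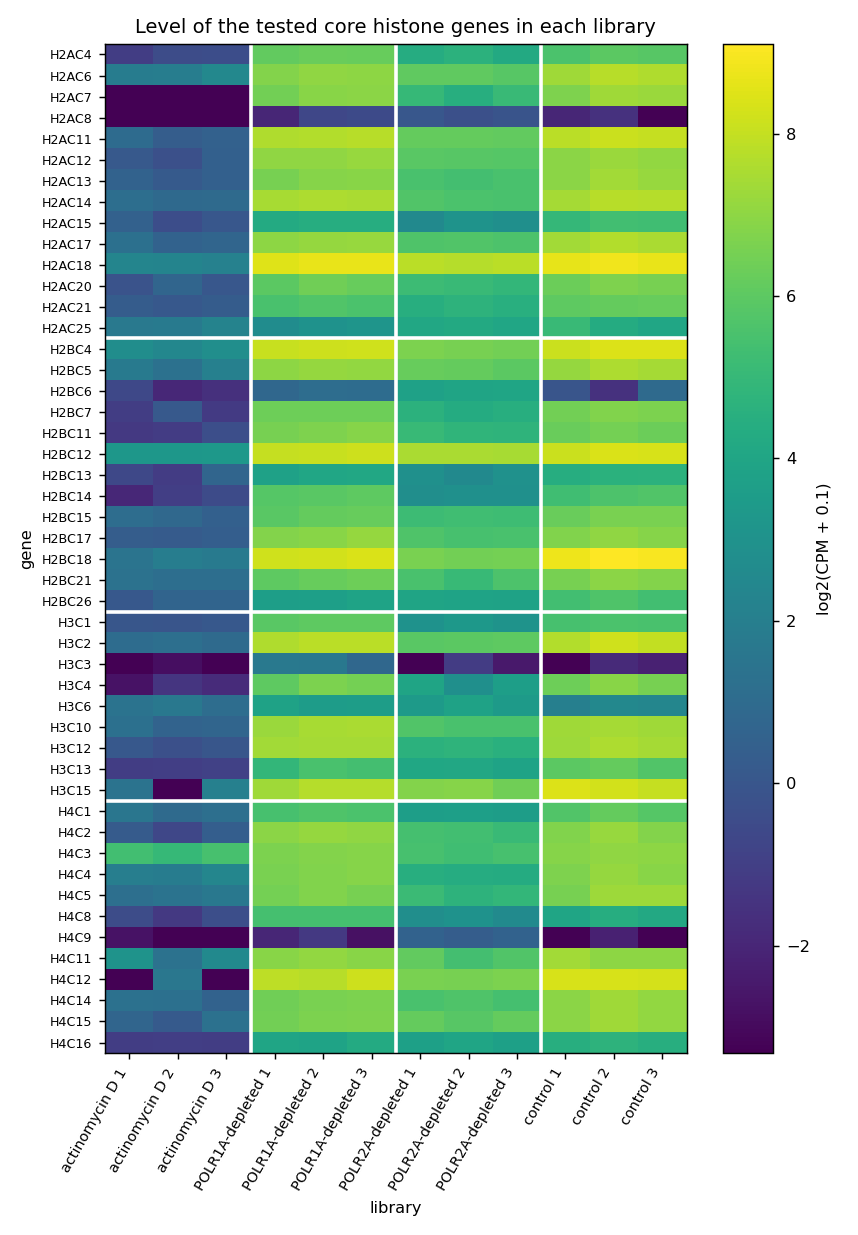
Log2(CPM + 0.1) of the 48 tested members (rows, H2A at the top, then H2B, H3 and H4) in the 12 libraries (columns, actinomycin D at the left and control at the right). The actinomycin D columns are darker than the control columns in most rows, and are brightest for H4C3, followed by H2BC12. H2AC8, H2BC6, H3C3 and H4C9 are the darkest rows in control.

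The members left out of the test were nearly silent. H2AC1, H2BC1 and H4C7 had 2 counts each over all 12 libraries, and H3C8 had 3. H2AC16 had 24 counts in all, of which 20 were in the POLR2A-depleted libraries, H4C13 had 18 of 23 there, H3C11 had 15 of 20 and H4C6 had 9 of 12. These few counts fell mostly in the shallowest group of libraries. H2BC3 had 32 of 46 counts with POLR1A depleted, and H2BC8 had 31 of 59 there and 20 with POLR2A depleted. H2BC9, H2BC10 and H3C7 had between 6 and 8 counts in all. H2AC1 and H2BC1 are known as testis genes.

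Genes that work with the core histones were read from lists chosen with earlier results known, and their counts stand beside the shares of all tested genes called the same way. Those shares were 24.9% higher and 28.5% lower with actinomycin D, 20.6% higher and 18.6% lower with POLR1A depleted, and 33.2% higher and 28.2% lower with POLR2A depleted, all on TMM scaling. The shares depend on level. For the 10707 better-counted genes defined above they were 44.0% higher and 34.9% lower with actinomycin D. They were 34.2% and 30.5% with POLR1A depleted, and 23.0% and 49.8% with POLR2A depleted. The lists were not matched to genes of like level. Rises and falls are again relative to the other RNA of a library. Linker histone H1 genes bind DNA between nucleosomes, and 4 were tested. With actinomycin D 2 fell and 0 rose (median -3.61), and with POLR1A depleted 0 fell and 1 rose (median 0.79). With POLR2A depleted 2 fell and 2 rose (median 0.81). H1-2 and H1-4 fell with actinomycin D (log2 fold change -5.84 and -6.37) and with POLR2A depleted (-1.01 and -2.33), and had no call with POLR1A depleted (-0.13 and -0.39). H1-1 and H1-3 held under 1 CPM in every group. Replacement histones are made also outside S phase, from polyadenylated mRNAs. Relative to other RNA, 9 of 11 rose and 2 fell with actinomycin D, with a median of 0.62. The shares were 24.9% and 28.5% for all genes, and 44.0% and 34.9% for the better-counted ones. Among the replacement histones that rose were H2AZ2 (0.88) and H3-3A (0.85). With POLR1A depleted 2 rose and 1 fell (median 0.07; 20.6% and 18.6% of all), and with POLR2A depleted 5 rose and 3 fell (median 0.15; 33.2% and 28.2% of all), with H3-3B at -0.61.

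Factors of histone gene transcription fell in 9 of 11 cases with actinomycin D (median -0.96, 28.5% of all genes fell), 5 of 11 with POLR1A depleted (median -0.09, 18.6% of all) and 7 of 11 with POLR2A depleted (median -0.30, 28.2% of all). With actinomycin D 1 rose, with POLR1A depleted 2 and with POLR2A depleted 1. NPAT, which organises histone transcription, had log2 fold changes of -1.42 with actinomycin D, -0.33 with POLR1A depleted and -0.23 with POLR2A depleted, all called. CDC25A, a phosphatase that activates CDK2, had log2 fold changes of -1.80 with actinomycin D, -1.23 with POLR1A depleted and -1.20 with POLR2A depleted, and HINFP fell with actinomycin D (-1.07). Of 17 genes of histone mRNA 3′ end processing 6 rose and 6 fell with actinomycin D (median 0.08), near the 24.9% and 28.5% of all genes. With POLR1A depleted 1 rose and 8 fell (median -0.07, 20.6% and 18.6% of all), and with POLR2A depleted 14 fell (median -0.40, 28.2% of all). SLBP, which binds the stem-loop, fell in all 3 groups (-0.85 with actinomycin D, -1.06 with POLR1A depleted and -1.07 with POLR2A depleted). ZNF473, a U7 partner, had -2.74 with actinomycin D, -0.35 with POLR1A depleted and -1.61 with POLR2A depleted. LSM11, of the U7 protein ring, had -1.17 with actinomycin D, -0.45 with POLR1A depleted and -1.48 with POLR2A depleted. All values of SLBP, ZNF473 and LSM11 were called lower.

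Of 12 genes of histone mRNA decay and translation 5 rose and 3 fell with actinomycin D (median 0.03), where 24.9% of all genes rose and 28.5% fell. With POLR1A depleted 5 rose and 5 fell (median 0.14, 20.6% and 18.6% of all), and with POLR2A depleted 1 rose and 11 fell (median -0.48, 33.2% and 28.2% of all). ERI1, an exonuclease that trims the stem-loop end, had 0.32 with actinomycin D, -0.47 with POLR1A depleted and -0.58 with POLR2A depleted, all called, and XRN1, a 5′ exonuclease, rose with POLR1A depleted (0.74). Among 17 histone chaperone and supply genes 10 rose and 5 fell with actinomycin D (median 0.40). The shares were 24.9% and 28.5% for all genes, and 44.0% and 34.9% for the better-counted ones. The list's share that fell was near that of all genes. Its share that rose was above both, by less for the better-counted genes. With POLR1A depleted 2 rose and 10 fell (median -0.21, 20.6% and 18.6% of all), and with POLR2A depleted 3 rose and 9 fell (median -0.18, 33.2% and 28.2% of all). CHAF1A, of the CAF-1 complex that loads new H3 and H4 at forks, fell in all 3 (-0.56 with actinomycin D, -1.05 with POLR1A depleted and -0.62 with POLR2A depleted).

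Genes of DNA replication and of cell-cycle arrest were read in the same way. Of 22 DNA replication and S-phase entry genes 12 rose and 7 fell with actinomycin D (median 0.18), where 24.9% of all genes rose and 28.5% fell. With POLR1A depleted 1 rose and 19 fell (median -0.69, 20.6% and 18.6% of all), and with POLR2A depleted 2 rose and 13 fell (median -0.20, 33.2% and 28.2% of all). E2F2 had -1.45 with actinomycin D, -1.94 with POLR1A depleted and -0.44 with POLR2A depleted, and CDT1, a licensing factor, had -1.27 with actinomycin D, -1.49 with POLR1A depleted and -1.19 with POLR2A depleted. Of 6 cell-cycle arrest genes 3 rose and 3 fell with actinomycin D (median -0.32, 24.9% and 28.5% of all), 6 rose with POLR1A depleted (median 1.78, 20.6% of all) and 5 rose with POLR2A depleted (median 1.15, 33.2% of all). CDKN1A, an inhibitor of cyclin-dependent kinases, had 0.43 with actinomycin D, 3.39 with POLR1A depleted and 1.437 with POLR2A depleted. The part of cell-cycle position in the histone values was not tested.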

How the data were processed

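Per the labels' protocols, a stranded total RNA kit with ribosomal RNA removal was used. The authors deposited 1 table of estimated counts per Ensembl gene, whose values need not be whole. RSEM 1.3.3, STAR and HTSeq 2.0.2 appear in the submitters' processing notes without roles, and the sources used here give neither annotation release nor strand setting. Such counts divide reads among similar genes, which bears on histone copies.

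Counts were rounded and fitted with edgeR 4.0.16 in R 4.3.3: filterByExpr left 23593 genes, TMM scaling was used, and 12 libraries with 4 group means, robust moderation and 8 residual degrees of freedom entered 1 quasi-likelihood fit. Adjustment ran over all tested genes within each of 6 comparisons. The members, gene lists and rule for named genes were chosen with earlier results of these data known. The rule gives per-library values for the 3 members with the highest CPM in each family and for the highest and lowest called members of each comparison, and other members were named after their values were seen. Standard errors are those implied by the F statistic. The floor for a group with no counts is 3 counts, which covers counting error only, since reads were not counted as molecules. On simulated data for the actinomycin D comparison (18903 genes in that step) the fit recovered 100% of genes changed 2-fold and called 19 unchanged genes. Only a small set of well-counted genes was changed there, at equal depth and with a fixed small spread. It therefore checks the code and does not measure recovery in these data. Replicates differed beyond sampling noise, and replicate numbers were not taken as pairs. Alternatives were RLE scaling, library totals, mitochondrial mRNA scaling, no filter, a replicate block, 2-group fits, DESeq2 1.42.0 and leaving out libraries. Summed near-identical copies and fits without the POLR2A-depleted libraries were added after the data were seen.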

Additional observations from a re-analysis of the deposited data

How the results depend on the processing

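The counts of called members kept their size within 1.5 times under every alternative run, except when libraries were scaled to the mitochondrially encoded mRNAs. Under that scaling 12 members were higher and 4 lower with POLR1A depleted than in control, and 1 member (H4C3) was higher with actinomycin D than with POLR2A depleted. The same scaling turned the sign, with POLR1A depleted against control, of these genes named by the rule: H2AC11 (0.071), H2AC14 (0.26), H2AC18 (0.23), H2AC7 (0.054), H2BC12 (0.14), H2BC4 (0.17), H3C2 (0.16), H3C4 (0.16), H4C11 (0.12), H4C3 (0.14), H4C4 (0.18), all on the log2 scale. Other members turned too, among them H3C12, which became 0.35 and was called higher. It also turned H3C6 with actinomycin D against control to 0.021, H4C3 between actinomycin D and POLR2A depletion to 1.05 and H2BC26 between the degron groups to 0.52. The log2 ratios of summed levels with POLR1A depleted to control became 0.098 for H2A, 0.043 for H2B, 0.14 for H3, 0.075 for H4 and 0.085 for all members. Without a filter H4C3 between actinomycin D and POLR2A depletion was 0.028. H3C6 between POLR1A and POLR2A depletion, near 0 throughout, was -0.0078 with RLE scaling, -0.019 with library totals, -0.0075 with DESeq2, and without each library in turn it ran from -0.00079 (without POLR1A-depleted replicate 1) to 0.19 (without POLR2A-depleted replicate 2). The cause of these turns was not tested beyond the shift of all genes that the scaling makes.

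Without each library in turn, 44 to 47 members were lower and 0 higher with actinomycin D than in control, 7 to 9 higher and 14 to 25 lower with POLR1A depleted, and 4 higher and 42 to 43 lower with POLR2A depleted. Between treatments 47 to 48 were lower and 0 higher with actinomycin D than with POLR1A depleted, 46 to 48 lower and 0 higher with actinomycin D than with POLR2A depleted, and 40 to 41 higher and 3 lower with POLR1A than with POLR2A depleted. Same-numbered libraries of different groups had correlations of their deviations from -0.17 to 0.13, so the numbers do not pair them. With the replicate block 20 members were lower with POLR1A depleted than in control, 7 higher, and no other count moved by more than 1. Depth limits the members with a few counts per library, and division of reads limits single copies.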
